A study of Mus musculus with 6 samples.

Results

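ISG15 conjugation, or ISGylation, is the attachment of the small protein ISG15 to other proteins, and 4 of its genes were followed here in RAW 264.7, an established mouse macrophage cell line. The genes were Isg15, Usp18, Ube2l6 and Uba7, and their probes were found by the gene symbol of the array platform's annotation. These 4 genes had 5 probes among 16281 on the array, whose probes with 1 symbol named 10698 genes. Cells cultured for 48 h with lipopolysaccharide (LPS, 100 ng/ml), a component of the outer membrane of Gram-negative bacteria, plus LPS-binding protein (LBP, 100 pM), the serum protein that carries LPS to its receptor, were compared with untreated cells cultured for 48 h. Total RNA from both was labelled with the dyes Cy5 and Cy3 and hybridised together on 6 arrays, 3 with the treated RNA in Cy5 and 3 with it in Cy3, each trio numbered set 1, set 2 and set 3.

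ISG15 is a ubiquitin-like protein made of a pair of ubiquitin-like domains. It is activated by the E1 enzyme UBA7 (also called UBE1L), passed to the E2 enzyme UBE2L6 (UBCH8), and joined to lysines of target proteins by an E3 ligase, in mouse chiefly HERC6. The protease USP18 (UBP43) takes ISG15 off its targets, and it also binds the interferon receptor subunit IFNAR2 and dampens type I interferon signalling. In macrophages LPS acts through TLR4, whose TRIF branch activates IRF3 and leads to interferon-beta, and the interferon then switches on genes such as these through transcription factors that include STAT2 and IRF9. The arrays measured RNA, not ISG15 protein or its conjugates.

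The DNA before the start sites is shown because interferon-induced genes often carry the interferon-stimulated response element, whose core was searched as GAAANNGAA, or the element of interferon regulatory factors, searched as AANNGAAA, where N is any base. Both strands were searched in windows of 250 bases before to 50 after each start, from RefSeq (GRCm38.p6). Matches of the 2 motifs can overlap, and both were chosen with results of these data known. The 250 bases before the starts of Isg15, on the minus strand at chr4:156200819-156201068, and of Uba7, on the plus strand at chr9:107975317-107975566, read as follows, with matches to either motif in capitals.
Isg15: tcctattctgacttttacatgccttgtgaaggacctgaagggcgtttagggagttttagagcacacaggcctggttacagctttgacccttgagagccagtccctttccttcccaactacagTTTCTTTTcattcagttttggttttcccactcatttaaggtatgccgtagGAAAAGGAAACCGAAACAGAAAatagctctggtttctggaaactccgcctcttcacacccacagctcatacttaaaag
Uba7: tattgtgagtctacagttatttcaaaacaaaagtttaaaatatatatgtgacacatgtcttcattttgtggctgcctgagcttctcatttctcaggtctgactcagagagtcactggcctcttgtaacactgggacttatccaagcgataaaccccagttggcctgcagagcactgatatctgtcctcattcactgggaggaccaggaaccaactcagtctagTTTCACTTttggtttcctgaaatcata

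The Isg15 window held 3 overlapping matches to GAAANNGAA, the first starting at base -78 and the last ending at base -58 from the start site, all on the strand of the gene. It held 4 matches to AANNGAAA, of which 1, at -128 to -121, lay on the opposite strand. In the Uba7 window there were 0 matches to GAAANNGAA and 1 to AANNGAAA, at -27 to -20 on the opposite strand. The Ube2l6 window, at chr2:84798578-84798827 on the plus strand for its 250 upstream bases, held 0 of either, which says only that these letters are not in this window. Of 32851 such windows in the table, 8.56% held GAAANNGAA and 23.9% held AANNGAAA. Counted by gene, with a match in any window of the gene, the shares were 8.77% and 23.2% among 7301 genes tested that had a window. They were 21.9% and 47.8% among 201 genes called higher by at least 2-fold, which include Isg15, Ube2l6 and Uba7. Among 957 genes called lower, taken without a fold cut and so not a like set, they were 7.42% and 20.7%. No test was run on these shares. These are descriptions of letters, not of bound sites.

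All ratios below are log2 ratios of treated over untreated RNA, with the sign turned on the arrays that had treated RNA in Cy3, and exact zeros in the deposited table were taken as missing. The base of the logarithm is not given in the sources used here and was taken as 2. Each set was averaged over its 2 arrays, which cancels a dye effect, and errors are given as the SD across sets (n = 3), with adjusted p-values from limma fitted over all features with a value on all 6 arrays. A feature with adjusted p under 0.05 is called higher or lower. Whether each set was a culture of its own is not in the labels, and the p-values therefore reflect only how far the sets differed, which may be technical. A ratio gives no level, so the macrophage identity of the cells could not be checked from it. Of the macrophage markers, 6 of 8 were tested, with 2 higher and 1 lower. Of the markers of other cell types 9 of 11 were tested, with 2 higher and 0 lower. Over all genes tested, 15.0% were called higher and 12.8% lower. The macrophage markers called were the Fc receptor gene Fcgr1 at 1.96 ± 0.15, Adgre1 at 0.94 ± 0.09 and the growth factor receptor gene Csf1r at -0.53 ± 0.22, and the others were the fibroblast marker Dcn at 2.68 ± 0.95 and the B cell marker Cd79a at 0.63 ± 0.11. Their part in the results below was not tested.

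After 48 h of LPS and LBP, the RNA of all 4 genes was higher in treated cells on every array, from 2.59-fold for Uba7 to 14.2-fold for Isg15. All 4 were called higher in the fit over 9160 genes, in which 15.0% of genes were called higher and 12.8% lower, and 2.95% were called higher by at least 2-fold. Over all genes, 16.4% were higher on all 6 arrays and 14.5% lower on all 6. Ranked by mean ratio from the highest, Isg15 stood at 5, Usp18 at 43, Ube2l6 at 126 and Uba7 at 170 of 9160. The order of the 4 ratios was thus modifier, deconjugating protease, E2 and E1.

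**Figure D1:**
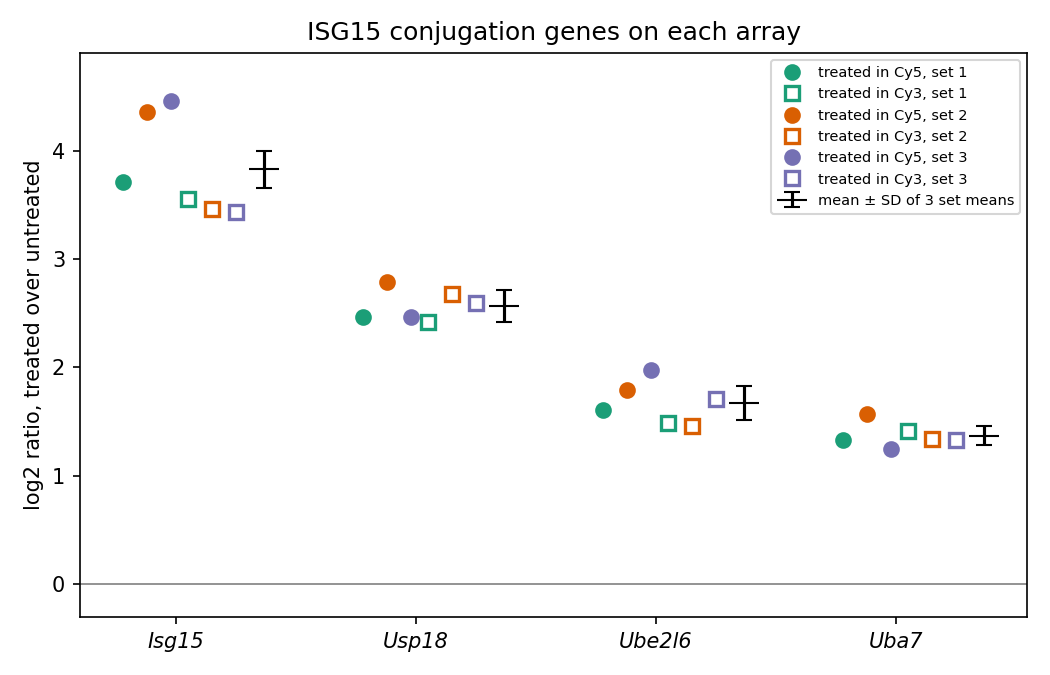
Log2 ratio of treated over untreated RNA (y axis) for the 4 genes (x axis) on each of 6 arrays, with filled circles for treated RNA in Cy5, open squares for treated RNA in Cy3, one colour per set, and a black bar for the mean ± SD of 3 set means. Isg15 lies between 3.43 and 4.45 and Uba7 between 1.25 and 1.57, and every point is above 0.

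Isg15 encodes the modifier itself. Its measured probe, designed from X56602, gave ratios of 3.71, 4.35 and 4.45 in sets 1 to 3 when the treated RNA was in Cy5, and 3.55, 3.46 and 3.43 with it in Cy3. All 3 arrays of the first orientation were above all 3 of the other, so the orientations did not overlap. The set means were 3.63, 3.91 and 3.94, which gave 3.83 ± 0.17 (14.2-fold, adjusted p = 4.28e-07). The orientation means were 4.17 and 3.48, and the dye effect of 0.35, on the log2 scale of Cy5 over Cy3, did not pass (limma, adjusted p = 0.131). Over all genes tested 0.142% were called for a dye effect. Before adjustment, 3348 of 12724 probes had a dye effect at p under 0.05 (limma). How many other genes had orientations that did not overlap was not counted.

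A second probe for Isg15, designed from NM_015783, was listed at exactly 0 on 5 of 6 arrays. Its 1 value, in set 3 with treated RNA in Cy3, was 0.97, where the first probe read 3.43. This probe was not tested. When zeros are kept as values and the probes are averaged, Isg15 stands at 1.99 (limma, adjusted p = 0.0112, in a fit that called 8.81% of genes higher), below Usp18, so the place of Isg15 at the head of the 4 genes depends on taking those zeros as missing.

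The gene whose 6 array ratios lay closest to those of Isg15 was Gm9706, which RefSeq annotates as a pseudogene on chromosome 17, whereas Isg15 is on chromosome 4. Its single probe, designed from AK019325, gave 3.57, 4.28 and 4.46 when the treated RNA was in Cy5 and 3.12, 3.50 and 3.53 with it in Cy3. It averaged 3.74 ± 0.35 (adjusted p = 1.21e-06), and its root mean square difference from Isg15 over the 6 arrays was 0.19. It was also higher with treated RNA in Cy5 than in Cy3 in each set, but so were the next closest genes, named below. The dye effect was 0.35 for Isg15, 0.36 for Gm9706, 0.49 for Procr, 0.39 for Gstt4, 0.54 for Gstt1 and 0.25 for Ccl2. A higher ratio with treated RNA in Cy5 was thus not particular to Gm9706, though its dye effect was the nearest of these to that of Isg15. Probe sequences were not used here, so whether this probe binds Isg15 RNA was not tested. The next closest genes were Procr, the receptor of protein C, at 3.67 ± 0.25, the glutathione transferase genes Gstt4 at 3.86 ± 0.47 and Gstt1 at 3.65 ± 0.35, and the chemokine gene Ccl2 at 3.92 ± 0.15, with root mean square differences of 0.27 to 0.32.

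**Figure D2:**
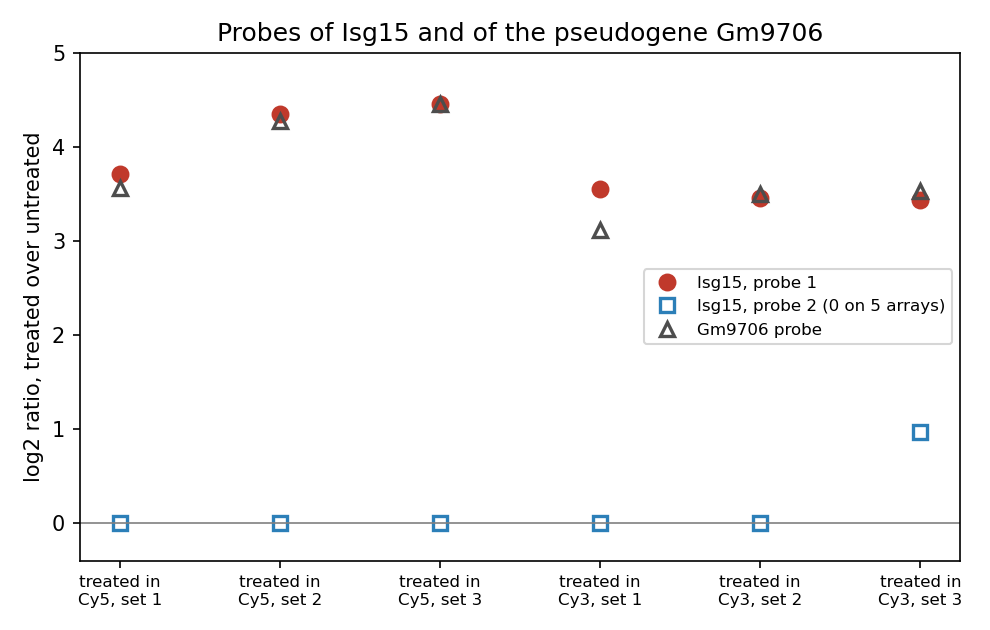
Log2 ratio of treated over untreated RNA (y axis) on the 6 arrays (x axis) for the measured Isg15 probe (circles), the second Isg15 probe (squares) and the Gm9706 probe (triangles). The first and the third run together between 3.12 and 4.46, while the second is listed at 0 on 5 arrays and stands at 0.97 on the other.

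Usp18 encodes the protease that removes ISG15. Its ratios in sets 1 to 3 were 2.47, 2.79 and 2.47 on the Cy5 arrays, those with treated RNA in Cy5, and 2.42, 2.68 and 2.60 on the Cy3 arrays. The orientations overlapped, and their means of 2.58 and 2.57 were nearly equal (dye effect 0.0050, limma adjusted p = 0.96). The mean was 2.57 ± 0.15 (5.94-fold, adjusted p = 1.21e-06), with set 2 highest in both orientations. Closest to Usp18 over the 6 arrays was the transcription factor gene Myc at 2.47 ± 0.03, with a root mean square difference of 0.17. The RNA sensor gene Ifih1, which encodes MDA5, followed at 2.42 ± 0.15, and then Lynx1 at 2.55 ± 0.20, Ddt at 2.34 ± 0.15 and the interferon-induced GTPase gene Irgm1 at 2.32 ± 0.11, up to a difference of 0.28. No RefSeq window was matched for Usp18.

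Ube2l6 encodes the E2 enzyme. Its ratios were 1.61, 1.79 and 1.98 in sets 1 to 3 on the Cy5 arrays, and 1.49, 1.46 and 1.71 on the Cy3 arrays. Within each set the Cy5 array was the higher, but the orientations overlapped, and the dye effect of 0.12 did not pass (limma, adjusted p = 0.207). The mean was 1.67 ± 0.15 (3.19-fold, adjusted p = 9.34e-06), and set 3 was highest in both orientations. Glrx, a glutaredoxin gene, was nearest at 1.66 ± 0.21, with a root mean square difference of 0.064. Dcxr at 1.73 ± 0.11, the DNA exonuclease gene Trex1 at 1.64 ± 0.10, the prostaglandin E synthase gene Ptges at 1.72 ± 0.18 and the fatty acid-binding protein gene Fabp4 at 1.65 ± 0.32 came next, up to 0.15.

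Uba7 encodes the E1 enzyme. In sets 1 to 3 it gave 1.33, 1.57 and 1.25 on the Cy5 arrays, and 1.42, 1.34 and 1.33 on the Cy3 arrays. The arrays of both orientations overlapped, and the lowest and the highest were both Cy5 arrays. The mean of 1.37 ± 0.08 (2.59-fold, adjusted p = 1.59e-05) carried the smallest SD of the 4 genes, and the dye effect was 0.01 (limma, adjusted p = 0.917). Nearest to Uba7 was H2-Q8, an MHC class I gene, at 1.31 ± 0.06, with a root mean square difference of 0.13. Shisa5 at 1.28 ± 0.08, Lgals3bp, which encodes a galectin-3 binding protein, at 1.26 ± 0.09, the DNA polymerase epsilon subunit gene Pole4 at 1.40 ± 0.05 and the cell fusion gene Ocstamp at 1.38 ± 0.14 lay within 0.15.

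**Figure D3:**
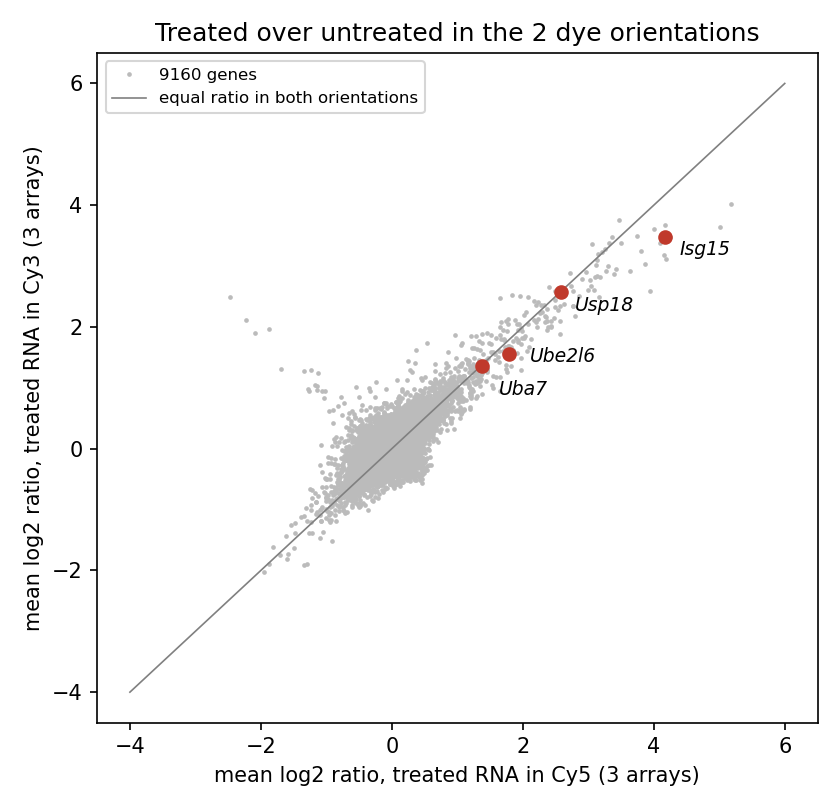
Mean log2 ratio of treated over untreated RNA over the 3 arrays with treated RNA in Cy5 (x axis) and the 3 with it in Cy3 (y axis), for 9160 genes (grey) and the 4 genes named (red), with the line of equal ratios. Usp18 and Uba7 lie on the line, and Isg15 lies below it, at 4.17 against 3.48.

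With Isg15 read from its first probe alone, the 4 ratios differed from each other in one order on every array. On the set 3 array with treated RNA in Cy3, the second Isg15 probe read 0.97, below Usp18 at 2.60. Isg15 exceeded Usp18 by 1.19, 1.17 and 1.41 in sets 1 to 3, Usp18 exceeded Ube2l6 by 0.90, 1.11 and 0.69, and Ube2l6 exceeded Uba7 by 0.17, 0.17 and 0.56. The mean differences were 1.26 ± 0.13, 0.90 ± 0.21 and 0.30 ± 0.22, each positive on 6 of 6 arrays. The last one was as small as 0.07 on 1 array and, at 0.30, was close to its own SD, so Ube2l6 and Uba7 were the neighbours least apart. These differences are given without a test, and the smallest two-sided p that an exact sign test of 3 sets allows is 0.25. These are differences of ratios and not of RNA levels.

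Of 10 ligase and protease genes listed beside the 4, 7 had a probe, and 2 of these were called higher and 1 lower, with a median ratio of 0.21 against -0.01 over all genes tested, of which 15.0% were called higher and 12.8% lower. With 7 genes, 1 called lower is near that share. Herc6, the main ISG15 ligase of mouse cells, gave 2.47, 2.06 and 2.34 on the Cy5 arrays and 2.52, 2.15 and 2.07 on the Cy3 arrays, and averaged 2.27 ± 0.20 (adjusted p = 3.43e-06). That put Herc6 between Usp18 and Ube2l6. A second Herc6 probe, listed at 0 on 1 array and so not tested, read 0.96 to 2.16 on the other 5. Trim25, a ubiquitin ligase of the RIG-I pathway also reported to join ISG15 to targets, rose by 1.02 ± 0.15 (adjusted p = 1.44e-04). Arih1, another reported ISG15 ligase, stood at 0.21 ± 0.28 (adjusted p = 0.206), with -0.10 in set 2 and 0.30 and 0.45 in the other sets, and it passed without set 2 (adjusted p = 0.0441).

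Of 4 ubiquitin proteases reported to act on ISG15 as well, 1 was called lower and 0 higher, against 12.8% and 15.0% of all genes. Their difference from Usp18 was not tested. Usp2 fell by 0.65 ± 0.17 (adjusted p = 0.00173). Usp16 stood at 0.25 ± 0.19 (adjusted p = 0.0869), Usp14 at 0.14 ± 0.49 (adjusted p = 0.565) and Usp21 at 0.00 ± 0.11 (adjusted p = 0.987). Usp16 passed in the fit over single arrays with no replicate block (adjusted p = 0.0353) and with at least 2 values in each orientation (adjusted p = 0.0438). The sign of Usp14 turned to -0.13 without set 1, and that of Usp21 to between -0.04 and -0.01 without set 2 or set 3 and to -0.00499 with the arrays scaled alike.

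Each of the 4 genes belongs to a larger family of ubiquitin-system genes, and in each family the member of the ISG15 system had the highest ratio of those tested with zeros taken as missing. With zeros kept Isg15, at 1.99, was below Oasl2, listed in the same family, at 2.85. The families were listed for this purpose with earlier results known, and no test of this position was run. The modifier family held 14 other tested genes, of ubiquitin-like modifiers or of proteins with ubiquitin-like domains. Of these, 4 were called higher and 0 lower, against 15.0% and 12.8% of all genes, with a median of 0.07. Oasl2, which carries ubiquitin-like domains on an OAS-like protein, was nearest to Isg15 at 2.85 ± 0.35 (adjusted p = 4.35e-06). The autophagy modifier genes Atg12 and Map1lc3a rose by 0.62 ± 0.25 and 0.37 ± 0.05 (adjusted p = 0.00403 and 0.0108). Atg12 did not pass with zeros kept (adjusted p = 0.0547) and Map1lc3a did not pass without set 3 (adjusted p = 0.0514), and 2 of the 14 genes in place of 4 were called higher without set 3, as with zeros kept. The lowest values were -0.06 ± 0.12 for Sumo3, -0.10 ± 0.54 for Urm1 and -0.14 ± 0.09 for Ufm1, and none of these passed. Urm1 ran from -0.68 to 0.38 between sets and turned to 0.19 without set 3.

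Of 10 other E1 genes listed, 4 had a probe and were tested, with 0 called higher and 2 lower. Sae1, a subunit of the SUMO E1, fell by 0.53 ± 0.24 (adjusted p = 0.00778). Uba1y, the Y-linked copy of the ubiquitin E1, was at -0.30 ± 0.17 (adjusted p = 0.0459), a call that was lost without set 1 or set 2 (adjusted p = 0.181 and 0.162) and in the fits over single arrays (adjusted p = 0.127 to 0.289), and with zeros kept neither Sae1 nor Uba1y passed (adjusted p = 0.0677 and 0.108). Uba3, of the NEDD8 E1, was at 0.10 ± 0.14, from probes at 0.28 and -0.08, and Atg7, the E1 of autophagy, was at 0.03 ± 0.06. Neither passed, and Atg7 turned to -0.01 without set 1. The ratio of Uba7 was thus the one E1 ratio of the 5 that was called higher. Over all genes 15.0% were called higher and 12.8% lower, so 0 of 4 called higher is near that share.

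Among 27 other E2 genes, 4 were called higher and 4 lower, which is near the 15.0% and 12.8% of all genes, and the median was 0.00. Ufc1, the E2 of UFM1, rose by 0.42 ± 0.04 and Ube2d3 by 0.39 ± 0.08 (adjusted p = 0.0062 and 0.00956). Ube2w had the highest mean of these, 0.95 ± 1.19, but its set means were 2.32, 0.25 and 0.27 and it did not pass (adjusted p = 0.0873), although it passed without set 3 (adjusted p = 0.0362). The E2 genes of the cell cycle and of DNA crosslink repair, Ube2c and Ube2t, fell by 0.76 ± 0.09 and 0.75 ± 0.08 (adjusted p = 4.32e-04 and 4.35e-04). Birc6, a large E2 that inhibits apoptosis, fell by 0.35 ± 0.09 (adjusted p = 0.0171), which did not pass without set 2 (adjusted p = 0.0831). Without set 2 the count of lower E2 genes was 2, and without set 1 the count of higher ones was 2. Ube2l3, the close paralog of Ube2l6, named here after its value was seen, was at -0.05 ± 0.20 (adjusted p = 0.73).

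Of 25 other ubiquitin-specific proteases with a probe 22 were tested, with a median of 0.06. Of these, 2 were called higher and 1, Usp2, lower, against 15.0% and 12.8% of all genes. Usp33 rose by 0.80 ± 0.29 and Usp25 by 0.49 ± 0.12 (adjusted p = 0.00175 and 0.00447). Usp11 was at 0.30 ± 0.29, Usp26 at -0.25 ± 0.15 and Usp9x at -0.22 ± 0.28 without passing (adjusted p = 0.0948, 0.0726 and 0.188). Usp11 passed without set 3 (adjusted p = 0.0374) and Usp9x without set 1 (adjusted p = 0.0274). Usp26 passed over single arrays with no replicate block (adjusted p = 0.0327) and with at least 2 values in each orientation (adjusted p = 0.0408). Without set 1, 2 proteases in place of 1 were called lower.

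**Figure D4:**
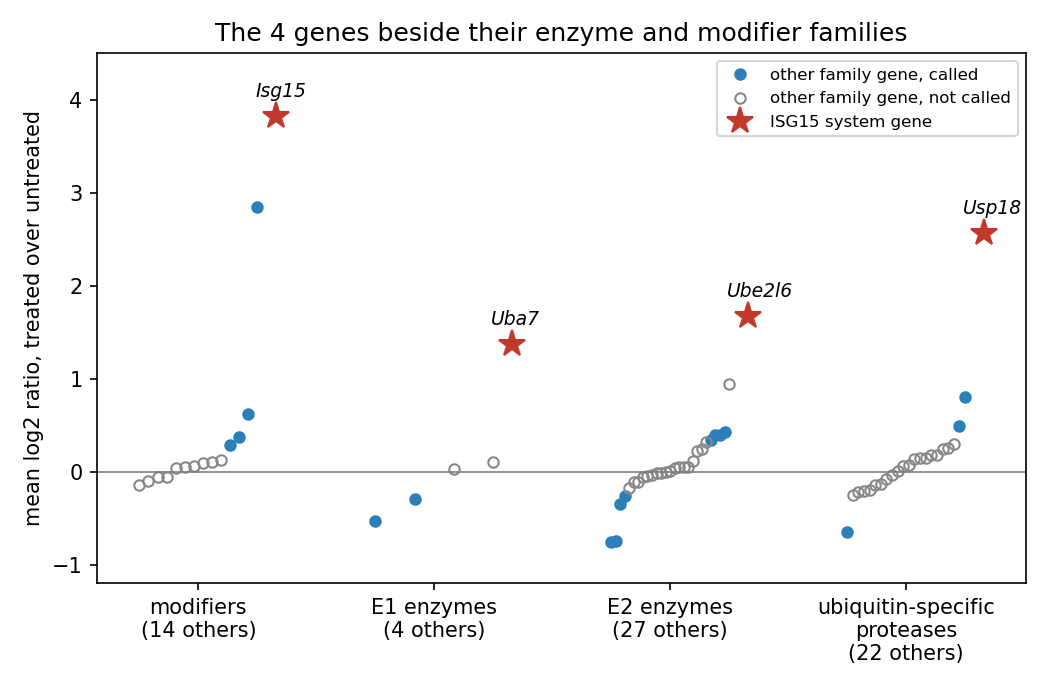
Mean log2 ratio of treated over untreated RNA (y axis) for the other genes of each family (blue, called at adjusted p under 0.05, and open grey, not called) and for the ISG15 system gene of that family (red star), with genes ordered by ratio within a family. The stars stand at 3.83, 1.37, 1.67 and 2.57, each above the 14, 4, 27 or 22 other genes of its family with zeros taken as missing.

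Of 16 type I interferon pathway genes tested, 9 were called higher and 0 lower, against 15.0% and 12.8% of all genes, with a median of 0.29. Whether this pathway raised the 4 genes here was not tested. The transcription factor gene Irf7, which amplifies interferon production, was highest at 2.83 ± 0.18 (adjusted p = 1.1e-06), with arrays between 2.40 and 3.40. Stat2 and Irf9, which encode interferon-activated transcription factors, rose by 1.57 ± 0.11 and 0.98 ± 0.11 (adjusted p = 9.3e-06 and 1.28e-04). Irf1 rose by 0.70 ± 0.16 and Irf8, a myeloid regulator, by 0.59 ± 0.24 (adjusted p = 0.00102 and 0.00461). Irf8 did not pass with zeros kept (adjusted p = 0.0557).

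Interferon RNA itself showed small ratios at 48 h. Ifnb1, which encodes interferon-beta, rose by 0.59 ± 0.25 (adjusted p = 0.00532), with arrays from 0.03 to 1.04, and did not pass with zeros kept (adjusted p = 0.0607). Ifna1, Ifna2, Ifna4 and Ifna5 had means of 0.06, 0.01, -0.12 and -0.14, and none passed (adjusted p = 0.353 to 0.948). Ifna1 turned to -0.09 without set 3, and Ifna2 to -0.10 and -0.02 without set 2 and set 3 and to -0.01 with the arrays scaled alike. The interferon-alpha genes are close in sequence, and Ifna9 and Ifna11 were each listed at 0 on 1 array and not tested. The receptor gene Ifnar1 rose by 0.46 ± 0.08 (adjusted p = 0.00462). Ifnar2, to whose product USP18 binds, rose by 0.31 ± 0.14 and the kinase gene Jak1 by 0.28 ± 0.05 (adjusted p = 0.0348 and 0.0344). The probes of Ifnar2 gave 0.12 and 0.50 and passed singly only for the latter (limma over probes, adjusted p = 0.337 and 0.0121). Ifnar2 did not pass without set 1 or set 2 (adjusted p = 0.167 and 0.104) or with zeros kept (adjusted p = 0.0787). Jak1 did not pass when set 1, set 2 or set 3 was left out (adjusted p = 0.0793, 0.132 and 0.0989). The kinase gene Tyk2 at 0.16 ± 0.05, the myeloid factor gene Spi1 at 0.03 ± 0.06 and Irf3 at -0.11 ± 0.17 did not pass (adjusted p = 0.173, 0.808 and 0.418).

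**Figure D5:**
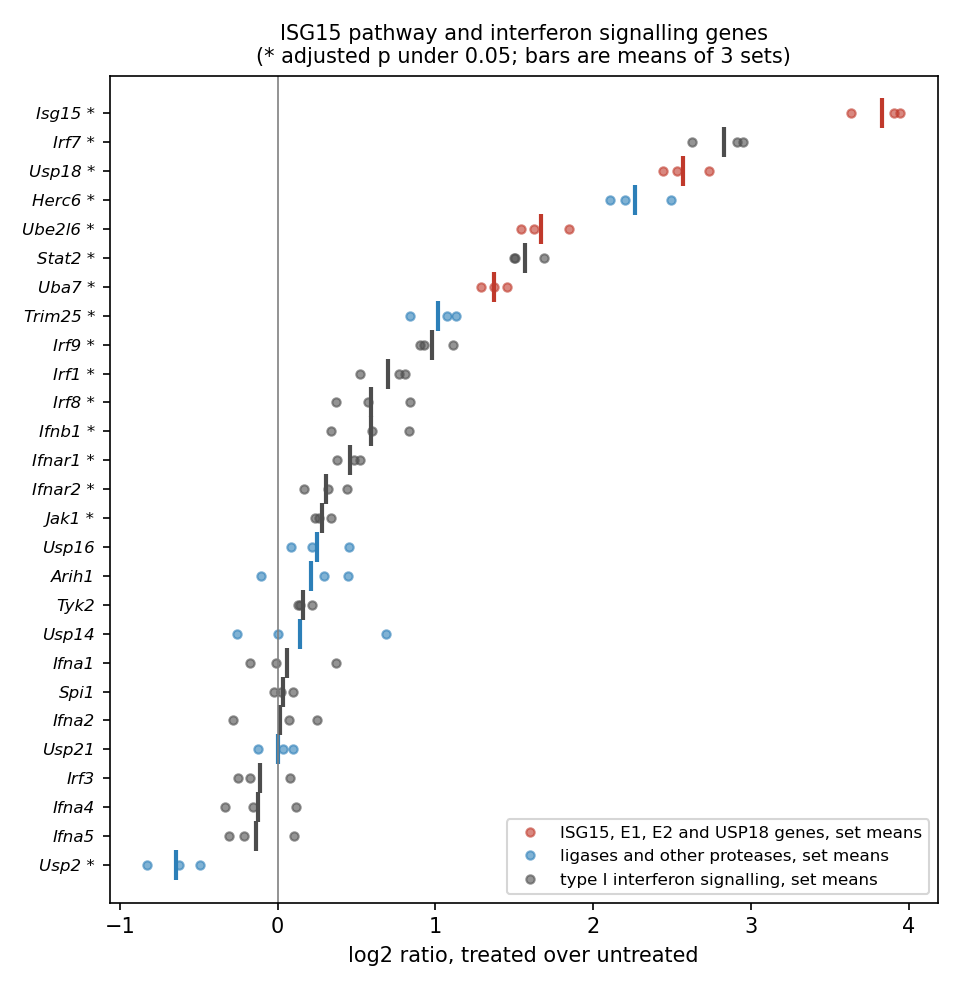
Log2 ratio of treated over untreated RNA (x axis) for the 4 genes (red), the other ISG15 ligases and proteases (blue) and type I interferon signalling genes (grey), ordered by mean, with dots for 3 set means, bars for their mean and an asterisk at adjusted p under 0.05. Isg15 is at the top at 3.83, Irf7, Usp18 and Herc6 lie between 2.27 and 2.83, and the interferon-alpha genes lie near 0.

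Genes whose products are reported as targets or partners of ISG15 or USP18 were called higher for 9 of 18 tested and lower for 1. Over all genes 15.0% were called higher and 12.8% lower. The median of the 18 was 0.25. Several of them are interferon-induced in their own right, and Stat2, Ifnar2, Jak1, Irf3, Ube2n and Ube2e1 are also counted above. The antiviral genes Mx1, Ifit3 and Ifit1 were highest, at 3.61 ± 0.46, 3.21 ± 0.15 and 2.85 ± 0.44 (adjusted p = 3.46e-06, 5.85e-07 and 8.61e-06). The probes of Ifit3 gave 4.12 and 2.31. Skp2, part of the ubiquitin ligase reported to mark USP18 for breakdown, fell by 0.80 ± 0.05 (adjusted p = 2.63e-04), with both of its measured probes between -0.85 and -0.75. The ubiquitin E2 gene Ube2n stood at -0.11 ± 0.11 without passing (adjusted p = 0.4).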

How the data were processed

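The deposited table gives, per probe, the authors' log ratio on each array, read here as log2 of Cy5 over Cy3. Background correction, dye normalization and scanner are not stated by the labels or the file header. The direction follows the dyes in the labels. Over 12724 probes, arrays of opposite orientation correlated at -0.78 to -0.56 and those of the same orientation at 0.74 to 0.81. Exact zeros, 7.97% to 17.8% of an array's values, were taken as missing, and probes with a value on all 6 arrays were kept. Signs were turned, probes with 1 symbol averaged per gene (9160 genes), the 2 arrays of a set averaged, and the 3 set means tested against 0 with limma 3.58.1 in R 4.3.3 (lmFit, eBayes, two-sided) with Benjamini-Hochberg adjustment. The procedure was tested on simulated data with noise drawn independently for each array, so variation shared by the arrays of a set was not covered. RefSeq held 13694 of 13738 probes with 1 symbol by gene ID and changed 0 symbols. 0 columns were left unmapped.

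The 4 genes and all lists were chosen with earlier results of these data known. Named were all member probes, all measured ligase, E1 and interferon signalling genes, the 3 highest and 3 lowest of the other lists, and the 5 genes nearest to each member by root mean square difference over the 6 arrays. The number of arrays limits the precision.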

Additional observations from a re-analysis of the deposited data

Results flagged for a closer look

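The second Isg15 probe, left out of the tests because it was listed at 0 on 5 arrays, had 1 value, 0.97 in treated over untreated cells. Ube2n had positive ratios on 1 dye orientation and negative ones on the other, in all 3 sets, with a dye effect of 0.34 on the log2 scale of Cy5 over Cy3. That difference is described by its signs, and its test did not pass (limma, adjusted p = 0.104).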

How the results depend on the processing

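All 4 genes kept their direction and passed in every alternative with a test. Zeros kept gave the weakest calls (limma, adjusted p = 0.0079 to 0.0112), and there Isg15 minus Usp18 turned to -0.58, since the second Isg15 probe, at 0 on 5 arrays, entered the mean. Isg15 was 4.17 with treated RNA in Cy5 alone and 3.48 in Cy3 alone. It was 3.62 in the fit needing at least 2 values in each orientation, where the 1 value of the second probe entered. Leaving out 1 set moved it between 3.77 and 3.93.

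With zeros kept, 903 probes were called higher and 504 lower, against 1887 and 1556, and 634 genes lower, against 1171. The listed pathway genes called lower were 5, against 8. Without 1 set the counts of lower genes were 747 to 886, of lower probes 833 to 1137 and of lower listed genes 5 to 7. A dye effect was called for 23 probes (3348 at an unadjusted p under 0.05), for 0 with zeros kept (3922 at an unadjusted p under 0.05), and for 0 to 30 without 1 set (1860 at an unadjusted p under 0.05 without set 1, which gave the 0). Uncalled genes near 0 changed sign. With arrays scaled alike Ifna2 was -0.0134 and Usp21 -0.00499. Without 1 set Atg7 ranged from -0.0058 to 0.0476, Ifna1 from -0.0917 to 0.18, Ifna2 from -0.10 to 0.16, Urm1 from -0.34 to 0.19, Usp14 from -0.13 to 0.35 and Usp21 from -0.0448 to 0.0646.

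The deviations of same-numbered arrays correlated at 0.53, 0.08 and 0.17, and 5 of 6 arrays correlated best with their own number, a hint from the data and not the design. With the set as a replicate block over single arrays, 2491 genes were called and Isg15 stayed at 3.83 (limma, adjusted p = 3.6e-07), and with no replicate block 3183 were called, against 2542. In the latter fit 4 ubiquitin-specific proteases were called higher and 4 lower, against 2 and 1. The other named genes kept direction and side of the threshold in 68 of 69 cases with the block and 63 of 69 with zeros kept. No dim-probe filter was possible because the files used hold no intensities.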
